A study of Mus musculus with 8 samples.

Results

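The genes described here are 8 transcriptional targets of the tumour suppressor p53: Mdm2, Cdkn1a, Ccng1, Trp53inp1, Bax, Phlda3, Zmat3 and Aen. They were taken by symbol from the deposited tables. All 8 were among the 16456 transcripts of the poly(A) RNA table and among the 7936 of the ribosome footprint table, and 7 were among the 7820 of the LIN28A CLIP table, in which Phlda3 was not listed. The cells were A3-1, a mouse embryonic stem cell line grown in serum and LIF. Poly(A) RNA was sequenced from untreated cells, from cells given an siRNA against luciferase (siLuc) and from cells given an siRNA against Lin28a (siLin28a), the siRNA cells after 48 h. Ribosome footprints, the mRNA fragments protected by translating ribosomes, were sequenced for siLuc and siLin28a. LIN28A CLIP, the sequencing of RNA crosslinked to and immunoprecipitated with LIN28A, was done without siRNA with the antibodies 35L33G, 2J3 and a polyclonal one. Each of these 8 samples is 1 library.

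p53 is a transcription factor that DNA damage and other stresses stabilise. Its targets halt the cell cycle, promote apoptosis, repair DNA, and, through Mdm2, which marks p53 for degradation, shut the response off again. Mouse embryonic stem cells hold abundant p53, and p53 there is also known to act against pluripotency genes. LIN28A is an RNA-binding protein of the same cells that blocks maturation of let-7 microRNAs and binds many mRNAs. The siLuc sample is the control for Lin28a siRNA. Set against untreated cells it shows what accompanied the control siRNA itself: the siRNA, its delivery and the time in culture cannot be told apart, and the sources used here do not say whether the untreated cells received the delivery reagent.

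The siRNAs, as the labels list them, are shown because they define the contrasts. The first strand listed is given 5′ to 3′ without its deoxythymidine overhang, and no base is capitalised.
siLin28a: auguucuucccuuuuggcc
siLuc: ucgaaguacucagcguaag

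Stretches of promoter are shown because the genes are grouped by a shared DNA-binding regulator. RefSeq promoter sequence (build GRCm38.p6, 250 bases before to 50 after an annotated start) was matched for 6 of the 8 genes: Mdm2, Cdkn1a, Ccng1, Bax, Phlda3 and Aen. It was searched for the p53 response element decamer, whose pattern is its own reverse complement, so that 1 search covers both strands. At least 1 decamer was found for 5 of these 6 genes, against 9.55% of 27025 genes in the same promoter table. The letters CATG, which can form the centre of the decamer, were found for 3 of the 6, against 64.8% of all genes. The genes were chosen as p53 targets, so these shares are a description and not a test. Capitals mark the decamers.
Cdkn1a: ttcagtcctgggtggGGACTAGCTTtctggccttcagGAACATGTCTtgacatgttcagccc
Ccng1: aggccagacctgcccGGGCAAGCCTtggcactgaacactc
Mdm2: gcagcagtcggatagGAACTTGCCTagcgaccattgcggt
Aen: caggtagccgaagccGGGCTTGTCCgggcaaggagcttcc
Bax: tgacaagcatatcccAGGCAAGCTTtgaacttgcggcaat

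Cdkn1a (chr17:29090891-29090952, plus strand) held a pair of decamers that start 73 and 51 bases before one annotated start and lie 12 bases apart. Only exact matches to the pattern were marked. A near match with a mismatch, such as the bases directly after the second Cdkn1a decamer, stays in lower case. The promoter of another annotated Cdkn1a start held 0 decamers. A pair of decamers with a spacer of at most 13 bases was present in 0.0731% of all 32851 promoters. The Ccng1 decamer (stretch chr11:40755447-40755486, minus strand) starts 185 bases upstream, and that of Mdm2 (chr10:117710920-117710959, minus strand) 186 bases upstream. In Aen (chr7:78895922-78895961, plus strand) the decamer lies 121 bases before one annotated start and 10 bases after another. The Bax decamer (chr7:45467075-45467114, minus strand) starts 201 bases upstream. A match describes letters only; binding of p53 was not measured in these samples, and the start used in these cells was not tested.

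Poly(A) libraries held 7475174 to 9605641 counts, footprint libraries 5980673 and 7570209, and CLIP libraries 7698479 to 8027670. Lin28a mRNA, the check of the siRNA, stood at 133 RPKM in untreated cells, 102 with siLuc and 34.0 with siLin28a (RPKM, reads scaled by exon length and library size, as deposited). The siLin28a level was 0.334 of siLuc (95% interval 0.311 to 0.358). The stem cell markers Pou5f1, Sox2, Nanog, Zfp42, Esrrb, Dppa5a, Utf1 and Tdgf1 were all present, at 179.7 to 874 RPKM in untreated cells. Of the fibroblast markers looked for, Col1a1 had 16, 10 and 12 counts in untreated, siLuc and siLin28a cells and Col1a2 had 7, 2 and 4, while Thy1 had 223, 174 and 102 and Vim, which stem cells also express, 1419, 1957 and 2779. Between siLuc and untreated cells the stem cell markers ranged from −0.72 (Utf1) to 0.48 (Dppa5a) in log2 ratio, and between siLin28a and siLuc from −0.13 (Zfp42) to 0.78 (Utf1). Of 9 early lineage markers, 3 passed 200 counts summed over the libraries (Eomes, Nes and Tubb3), and Cdx2 had 0, 2 and 4 counts. Eomes had 29, 52 and 142 counts and Nes 81, 76 and 204, both highest with siLin28a; their part in the results below was not tested. In these bulk samples, fewer cells of a type and less RNA per cell cannot be told apart.

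The level of each gene per length was compared first, in untreated cells. Bax, the pore-forming effector of mitochondrial apoptosis, was far above the rest at 324 RPKM (95% counting interval 311 to 336). Ccng1 followed at 40.9 (38.7 to 43.2), Aen at 35.6 (33.3 to 38.1) and Mdm2 at 27.0 (25.1 to 29.0). Trp53inp1 was at 22.5 (21.2 to 23.9), Cdkn1a at 20.7 (18.7 to 23.0), Zmat3 at 19.6 (18.6 to 20.7) and Phlda3 at 15.6 (13.6 to 17.8). Neighbours in this order had intervals apart except for Trp53inp1 with Cdkn1a and Cdkn1a with Zmat3. These are exact Poisson intervals. They and all intervals below cover counting error only, since no siRNA condition had a replicate, and no p-value is given for any siRNA comparison.

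**Figure D1:**
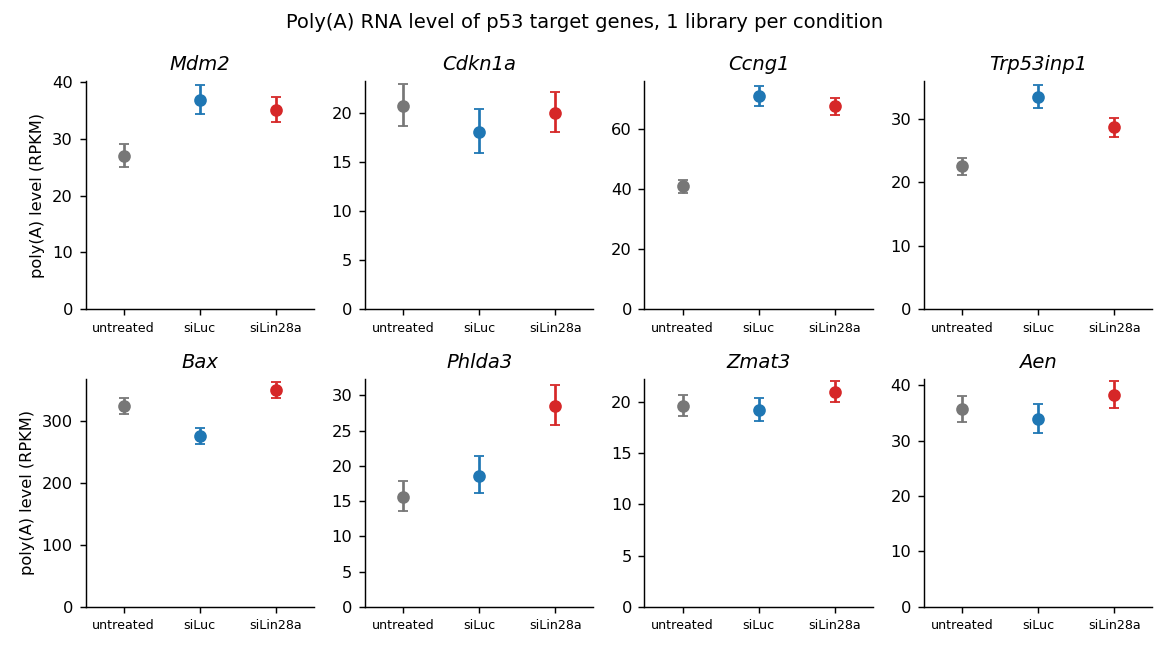
Poly(A) level in RPKM (y axis, from 0, scaled per gene) of the 8 genes in untreated, siLuc and siLin28a cells, 1 library each; bars are 95% Poisson counting intervals. Ccng1, Trp53inp1 and Mdm2 were lowest in untreated cells, Phlda3 was highest with siLin28a, and Bax was lowest with siLuc.

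With the control siRNA the 8 genes did not move as one. Ccng1, Trp53inp1 and Mdm2 were higher with siLuc than in untreated cells, at 1.74, 1.49 and 1.37 times the untreated level, Bax was lower at 0.85 of the untreated level, and Cdkn1a, Phlda3, Zmat3 and Aen had intervals that included no change. Of the 8 genes, 1 (Ccng1) was at least 1.5-fold higher and 0 were at least 1.5-fold lower. Over all 9672 transcripts with 200 or more poly(A) counts, 4.05% passed that fold upward and 5.06% downward. All 8 genes passed that count minimum, and their median log2 ratio was 0.11 against −0.01 over all transcripts. Trp53inp1 lay just under the fold limit. At 2-fold none of the 8 passed, where 0.465% of all transcripts were higher and 0.569% lower. At 1.25-fold, a limit chosen after the values were seen, 3 (Mdm2, Ccng1 and Trp53inp1) were higher, where 15.4% of all were, and 0 lower, where 17.2% were.

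The genes that feed back on p53 were read first. Mdm2, the ubiquitin ligase that holds p53 down (NM_010786, mm9 chromosome 10, 117125961 to 117147772), stood at 27.0 RPKM untreated, 36.9 with siLuc and 35.2 with siLin28a. Both siRNA samples were above untreated and their own intervals overlapped. The log2 ratio of siLuc over untreated was 0.45 (95% interval 0.31 to 0.59) and that of siLin28a over siLuc −0.07 (−0.20 to 0.06). Ccng1, which encodes cyclin G1, a partner of protein phosphatase PP2A that also acts on Mdm2 (NM_009831, mm9 chromosome 11, 40562054 to 40568788), showed the same order with a wider gap. Its level was 40.9 RPKM untreated, 71.0 with siLuc and 67.6 with siLin28a. The log2 ratio was 0.80 (0.69 to 0.90) for siLuc over untreated and −0.07 (−0.16 to 0.02) for siLin28a over siLuc. Zmat3, a zinc finger RNA-binding protein (NM_009517, mm9 chromosome 3, 32233716 to 32264587), was nearly level at 19.6, 19.2 and 21.003 RPKM. Its log2 ratios were −0.03 (−0.14 to 0.08) and 0.13 (0.02 to 0.24) for the same contrasts.

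Cdkn1a encodes p21, the cyclin-dependent kinase inhibitor through which p53 halts the cell cycle (NM_001111099, mm9 chromosome 17, 29227931 to 29237667). Its level was 20.7 RPKM untreated, 18.1 with siLuc and 20.1 with siLin28a, and the 3 intervals overlapped. The log2 ratio was −0.20 (−0.43 to 0.04) for siLuc over untreated and 0.15 (−0.08 to 0.38) for siLin28a over siLuc. Cdkn1a therefore did not share the higher siLuc level of Mdm2 and Ccng1.

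The apoptosis genes fell into different patterns. Trp53inp1, a stress protein that promotes p53-dependent cell death and autophagy (NM_001199105, mm9 chromosome 4, 11083588 to 11101524), was at 22.5 RPKM untreated, 33.5 with siLuc and 28.7 with siLin28a. It was the 1 member of the 8 whose interval lay wholly below 0 with siLin28a against siLuc, at a log2 ratio of −0.22 (−0.33 to −0.12), beside 0.57 (0.46 to 0.69) for siLuc over untreated. Bax (NM_007527, mm9 chromosome 7, 52717065 to 52722268) was at 324, 275 and 350 RPKM, lowest with siLuc. Its log2 ratios were −0.23 (−0.32 to −0.15) for siLuc over untreated, 0.35 (0.26 to 0.43) for siLin28a over siLuc and 0.11 (0.04 to 0.19) for siLin28a over untreated.

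Phlda3, a PH-domain protein that holds back the survival kinase AKT (NM_013750, mm9 chromosome 1, 137662662 to 137665711), stood out with siLin28a. It was at 15.6 RPKM untreated, 18.6 with siLuc and 28.5 with siLin28a, from 212, 204 and 402 counts. The siLin28a interval was above both others, which overlapped each other. The log2 ratio was 0.62 (0.37 to 0.87) over siLuc and 0.87 (0.63 to 1.12) over untreated cells. Aen, an exonuclease that takes part in apoptosis (NM_026531, mm9 chromosome 7, 86040813 to 86053719), was at 35.6, 34.0 and 38.2 RPKM. Its log2 ratio was −0.07 (−0.22 to 0.08) for siLuc over untreated and 0.17 (0.02 to 0.32) for siLin28a over siLuc.

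With siLin28a against siLuc, 1 of the 8 genes (Phlda3) was at least 1.5-fold higher, where 8.36% of all 9672 transcripts were, and 0 were at least 1.5-fold lower, where 5.11% were. The median log2 ratio of the 8 was 0.14, against −0.00064 over all transcripts. At 2-fold none of the 8 passed, where 1.93% of all were higher and 0.631% lower. At 1.25-fold 2 (Bax and Phlda3) were higher, where 20.7% of all were, and 0 lower, where 18% were. For siLin28a over untreated, 2 of the 8 (Ccng1 and Phlda3) were at least 1.5-fold higher, where 8.19% of all were, and 0 were lower, where 5.63% were. At 2-fold none of the 8 passed, against 2.34% higher and 0.827% lower over all. At 1.25-fold 4 (Mdm2, Ccng1, Trp53inp1 and Phlda3) were higher and 0 lower, against 19.3% and 18.2%. These 3 contrasts share libraries, so they are not independent of one another: siLuc is the numerator of one and the denominator of another, and the single untreated library is the denominator of both ratios over untreated. Against untreated cells, Ccng1, Mdm2 and Trp53inp1 stood at log2 ratios of 0.72, 0.38 and 0.35 with siLin28a, and at 0.80, 0.45 and 0.57 with siLuc. In these 3 genes both siRNA libraries stood above that 1 untreated library, siLuc slightly more so, and a low value in it would raise both ratios. For Phlda3 the ratio over untreated was 0.25 (−0.03 to 0.54) with siLuc and 0.87 with siLin28a.

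**Figure D2:**
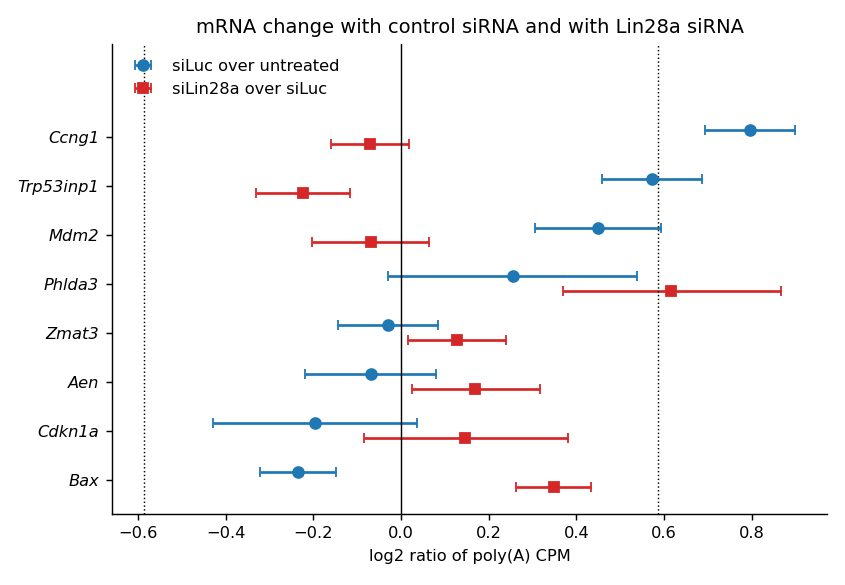
Log2 ratio of poly(A) CPM (counts scaled to library totals; x axis) for siLuc over untreated (circles) and siLin28a over siLuc (squares); bars are 95% Clopper-Pearson counting intervals and dotted lines mark 1.5-fold. Ccng1, Trp53inp1 and Mdm2 lie to the right for siLuc, while Phlda3 and Bax lie to the right for siLin28a.

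p53 itself and its regulators were read from a list of genes given by function. Trp53 mRNA was at 219 RPKM untreated, 143 with siLuc and 188 with siLin28a, lowest with siLuc. Its log2 ratio was −0.62 (−0.69 to −0.54) for siLuc over untreated and 0.40 (0.32 to 0.48) for siLin28a over siLuc. A processed Trp53 pseudogene exists in mouse, so these reads are uncertain, and mRNA does not measure p53 protein. Of 21 genes of this list with 200 or more counts, 0 were at least 1.5-fold higher with siLuc than untreated and 3 lower, Trp53, Hipk2 (a kinase that phosphorylates p53, −0.85) and Ppp1r13l (an inhibitory p53 partner, −0.69). Over all transcripts 4.05% were higher and 5.06% lower by this fold in that contrast, and 8.36% and 5.11% for siLin28a over siLuc. The highest were the deacetylase gene Sirt1 at 0.42 and Ppm1d, a p53-induced phosphatase that ends the damage response, at 0.39. With siLin28a over siLuc 1 of the 21 was at least 1.5-fold higher, Ppp1r13l at 0.66, and 0 were lower; Hipk2 followed at 0.44 (−0.06 to 0.97), and the checkpoint kinase gene Chek1 and Ppm1d were lowest at −0.56 and −0.48. Mdm4, the Mdm2 partner that blocks p53's activation domain, was at 0.16 and −0.16 in these contrasts.

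Other known p53 targets were also mixed. Counts of the arrest, apoptosis, repair, and metabolism and stress lists stand against 4.05% of all transcripts higher and 5.06% lower for siLuc over untreated (median −0.01), and 8.36% and 5.11% for siLin28a over siLuc. Of 8 further arrest genes, 2 were at least 1.5-fold higher with siLuc than untreated, Gadd45a at 0.83 (0.57 to 1.09) and the kinase gene Plk2 at 0.59 (0.28 to 0.91), and 0 were lower; Sfn and Plk3 were lowest at −0.11 and −0.10. After Lin28a siRNA, against siLuc, 2 of the 8 were at least 1.5-fold higher, Sfn and Plk3, and 0 lower. Sfn was at 1.05 (0.57 to 1.58), from 47 siLuc and 126 siLin28a counts, and Plk3 at 0.61 (0.36 to 0.86). Both intervals reached below 1.5-fold. Gadd45a was lowest at −0.37, followed by Ckap2 at −0.06. Of 10 further apoptosis genes past the count minimum (12 in the table), 1 was at least 1.5-fold higher with siLuc, Perp at 1.05 (0.52 to 1.59), from 49 untreated and 82 siLuc counts. Pmaip1, which encodes the BH3-only protein NOXA, was at 0.52, and Ei24 and Bid were lowest at −0.29 and −0.08. With siLin28a over siLuc 2 of the 10 were at least 1.5-fold higher, Perp at 1.35 (0.99 to 1.73) and Ei24 at 0.64 (0.53 to 0.77). Lrdd, the adaptor gene also called Pidd1, was lowest at −0.35, followed by Pmaip1 at −0.19.

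Among 4 DNA repair targets past the minimum (6 in the table), the polymerase gene Polk and the nuclease gene Ercc5 were at least 1.5-fold higher with siLuc, at 0.71 and 0.69. Xpc and Polh were at −0.11 and −0.07, and with siLin28a over siLuc the 4 ranged from −0.50 (Polk) and −0.07 (Ercc5) to −0.01 (Polh) and 0.06 (Xpc). Of 18 metabolism and stress targets (20 in the table), 3 were at least 1.5-fold higher with siLuc and 3 lower. The mTORC1 inhibitor gene Ddit4 was highest at 1.06 (0.90 to 1.22), followed by Ndrg1 at 0.64, and Rps27l and Cpt1c were lowest at −0.80 and −0.73. Against siLuc, siLin28a had 4 of the 18 genes at least 1.5-fold higher and 0 lower. Dcxr at 1.31 (0.85 to 1.81), from 49 siLuc and 157 siLin28a counts, and Cpt1c at 1.11 (0.82 to 1.41) were highest. Steap3 (−0.30) and Fdxr (−0.24) were lowest. Rps27l closely resembles Rps27, so its reads are uncertain.

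Mitotic genes that p53 lowers through p21 and the DREAM repressor complex were set beside these. Of 17, 1 was at least 1.5-fold higher with siLuc than untreated and 3 lower, with a median of −0.10 against −0.01 over all transcripts, of which 4.05% were higher and 5.06% lower. Ube2c and Plk1 were lowest at −0.91 and −0.73, and Cks2 and Prc1 highest at 0.67 and 0.51. Against siLuc, 0 of 17 passed 1.5-fold in either direction with siLin28a and the median was −0.04, from Aurka at −0.41 and Aurkb at −0.25 to Foxm1 at 0.36 and Mybl2 at 0.50.

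Genes of the integrated stress response, some of which p53 also regulates or that are induced with it, stood in opposite directions in these contrasts. Of 13 past the minimum, 4 were at least 1.5-fold higher with siLuc than untreated and 0 lower (median 0.37), where 4.05% of all were higher and 5.06% lower, with Chac1 at 1.80 and Ddit3 at 1.46 highest and Psat1 at 0.002 and Shmt2 at 0.02 lowest. With siLin28a over siLuc 0 were higher and 7 lower (median −0.60), where 8.36% of all were higher and 5.11% lower, with Chac1 at −2.43 and Trib3 at −1.67 lowest and Ppp1r15a and Asns nearest 0 at −0.04 and −0.11. Both contrasts use the siLuc library. Without it, for siLin28a over untreated, 1 of the 13 was higher and 4 lower (median −0.33), where 8.19% of all were higher and 5.63% lower. The part of this response in the siLuc levels of Ccng1, Mdm2 and Trp53inp1 was not tested. Of 17 genes of the interferon response, a known reaction to double-stranded RNA, 6 passed the count minimum, where 9672 of all 16456 transcripts did. Of these 6, 0 were at least 1.5-fold higher with siLuc than untreated and 1 lower. Irf9 was at −0.61, Bst2 at 0.03 and Eif2ak2 at 0.39. With siLin28a over siLuc, 1 of the 6 was at least 1.5-fold higher and 0 lower (median −0.41). Eif2ak2 and Oas1a were at −0.57 and −0.50, and Irf9 at 0.61.

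Ribosome footprints were read next, as a description of ribosomes on these mRNAs after Lin28a siRNA. With 1 library per condition, they cannot settle whether translation differed. Footprints on Bax were higher with siLin28a by 1.55-fold and on Phlda3 by 1.39-fold, with the same sign under every scaling run. Footprints on Aen were at 0.755 of siLuc by library totals, but its interval reached 0 with the other scalings. By library totals 1 of the 8 genes (Bax) was at least 1.5-fold higher, where 14.4% of 6323 transcripts with 200 or more footprint counts were, and 0 were at least 1.5-fold lower, where 26.9% were. At 2-fold none passed, against 3.84% higher and 9.14% lower over all. At 1.25-fold 2 (Bax and Phlda3) were higher and 2 (Aen and Cdkn1a) lower by totals, against 22.5% and 43.3%. With TMM this became 4 (Bax, Phlda3, Zmat3 and Ccng1) higher and 0 lower, against 31.4% and 28.9%, and with median centring also 4 and 0, against 30.8% and 29.7%. The median transcript lay at −0.21 by library totals, so that all footprint ratios are best read against it. With TMM scaling 2 of the 8 (Bax and Phlda3) passed 1.5-fold, and over all transcripts 1334 were higher and 989 lower, against 912 and 1699 by totals. The median of the 8 was −0.01 by totals, 0.20 above that of all transcripts.

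Bax had 286 footprint CPM with siLuc and 443 with siLin28a at a log2 ratio of 0.63 (0.55 to 0.72). Phlda3 had 28.8 and 40.1 CPM (0.48, 0.21 to 0.75). Both were higher with siLin28a in mRNA and in footprints. Aen had 74.6 CPM with siLuc and 56.3 with siLin28a (−0.40, −0.60 to −0.21), although its mRNA stood slightly higher with siLin28a. Cdkn1a had 28.8 and 22.9 CPM (−0.33, −0.65 to −0.02), also against the sign of its mRNA value. Relative to the median transcript, Aen was at −0.19 (−0.39 to 0.01) and Cdkn1a at −0.11 (−0.43 to 0.20), so that both intervals included no change. Ccng1 had 47.7 and 53.8 CPM (0.18, −0.05 to 0.40) and Zmat3 30.6 and 34.9 (0.19, −0.09 to 0.47). Their intervals lay above 0 when centred on the median transcript, at 0.39 (0.17 to 0.61) for Ccng1 and 0.40 (0.13 to 0.68) for Zmat3. Mdm2 had 51.8 and 44.8 CPM (−0.21, −0.44 to 0.02) and Trp53inp1 25.4 and 22.1 (−0.20, −0.53 to 0.13). The Mdm2 and Trp53inp1 values turned to 0.01 and 0.02 when centred on the median transcript, so no direction is given for them.

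Ribosome density, footprints per mRNA, was taken within the footprint table and centred on the median of 6323 transcripts; by totals that median lay at −0.20. The level of density in siLuc cells depended on which table's mRNA counts were used, so no order of the 8 genes is given. With the footprint table's counts Phlda3 and Cdkn1a were at log2 values of 1.34 and 1.13 relative to the median transcript, Trp53inp1 at 0.85, Bax at 0.37, Zmat3 at 0.26, Aen at 0.07, Mdm2 at −0.50 and Ccng1 at −1.53. With the poly(A) table's counts, over 6273 transcripts, Bax was at 0.70, Phlda3 at 0.52, Aen at 0.21, Cdkn1a at 0.16, Mdm2 at −0.66, Zmat3 at −1.84, Ccng1 at −1.93 and Trp53inp1 at −2.39. Trp53inp1 and Zmat3, whose transcripts are mostly non-coding, moved most between the tables, while Ccng1 was well below the median transcript in both.

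With siLin28a the density of Bax was higher by 0.47 on the log2 scale (95% interval 0.35 to 0.59) and that of Ccng1 by 0.38 (0.13 to 0.63). The density of Aen was lower, at −0.47 (−0.72 to −0.22). Cdkn1a was at −0.43 (−0.91 to 0.04), Zmat3 at −0.30 (−0.67 to 0.06), Phlda3 at 0.17 (−0.30 to 0.63), Trp53inp1 at 0.12 (−0.37 to 0.61) and Mdm2 at 0.06 (−0.22 to 0.33). In these 5 the interval, a normal approximation on the log scale, included 0. None of the 8 passed 1.5-fold in either direction, where 19.1% of all transcripts were higher and 17% lower. At 2-fold none passed either, against 5.12% and 3.67%. At 1.25-fold 2 (Bax and Ccng1) were higher and 2 (Aen and Cdkn1a) lower, against 30.4% and 30.3%. Without centring, 2 (Aen at −0.67 and Cdkn1a at −0.63) were at least 1.5-fold lower and 0 higher, where 26.3% of all were lower and 12% higher (1666 and 757 transcripts). At 1.25-fold, 3 (with Zmat3 at −0.50) were then lower and 0 higher, against 42.6% and 22%. Ccng1 was then at 0.18 (−0.06 to 0.43), an interval that included 0, and Bax at 0.27 (0.15 to 0.39). Mdm2, Phlda3 and Trp53inp1 turned negative without centring, so no direction is given for them. The footprint table tallies poly(A) reads differently from the poly(A) table: for siLuc its counts were 7.87% of the latter for Trp53inp1 and 94.2% for Bax. Zmat3 depended on this choice, with an mRNA log2 ratio of 0.69 in the footprint table and 0.13 in the poly(A) table, and its density change turned to 0.27 with the latter, so that its direction is uncertain. The other 7 genes kept their sign with both sets of mRNA counts.

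Trp53 itself went from 649 to 385 footprint CPM, a log2 ratio of −0.75, and its centred density was at −0.96, although its mRNA stood at 0.40 over siLuc. Of 7 further arrest genes past the footprint minimum, 1 had a density at least 1.5-fold higher and 6 lower, with a median of −0.92. Of 16 mitotic genes, 0 were higher and 6 lower, with a median of −0.44. The 4 apoptosis genes past the minimum had 1 higher and 0 lower (median 0.49), and the 13 metabolism and stress genes 4 higher and 1 lower (median 0.49). Over all transcripts 19.1% were higher and 17% lower. The lists were not tested against each other, the apoptosis median rests on 4 genes, and Aen, itself an apoptosis gene, was at −0.47.

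**Figure D3:**
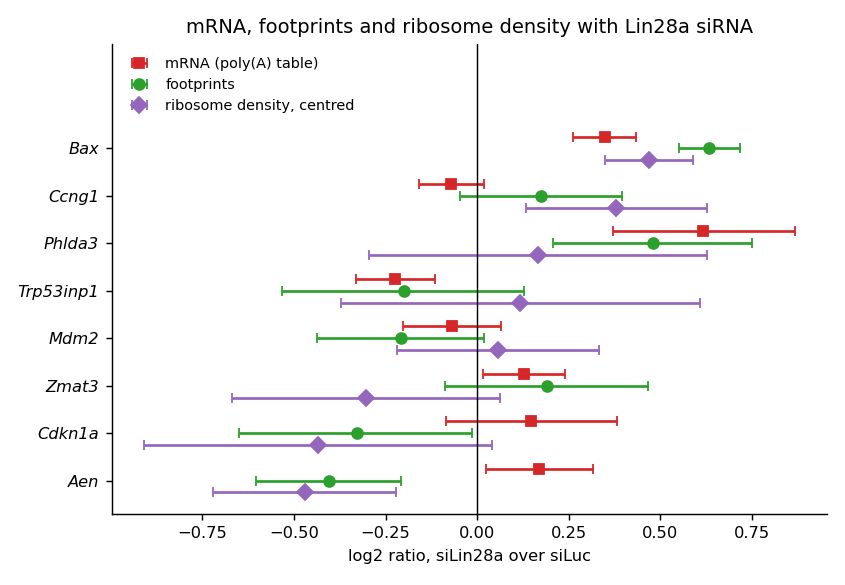
Log2 ratio of siLin28a over siLuc (x axis) for mRNA in the poly(A) table (squares), footprints by library totals (circles) and ribosome density centred on the median transcript and computed with the footprint table's own mRNA counts (diamonds); bars are 95% counting intervals. Bax lies right of 0 in all 3 measures, and Aen lies left of 0 in footprints and density but right of 0 in mRNA.

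LIN28A CLIP split the 7 measured genes into opposite groups. Ccng1, Trp53inp1, Mdm2 and Zmat3 were enriched over untreated poly(A) RNA by 3.51-, 3.20-, 2.06- and 1.84-fold, and Aen, Cdkn1a and Bax were depleted, to 0.302, 0.514 and 0.578. All 7 passed the quasi-likelihood test of edgeR, with p adjusted by Benjamini-Hochberg over all transcripts. Of all 7820 transcripts 34.6% were called enriched and 33.3% depleted. By total counts in place of TMM the calls over all transcripts were 1984 enriched and 3605 depleted, against 2702 and 2604, and those of the 7 genes stayed 4 and 3. The input is a single library assumed to vary like the CLIP libraries, which differ in antibody. Nothing in the labels says that separate cultures were used, so p sets the difference from input only against the spread of the CLIP libraries. That spread may be technical. No control CLIP library was analysed here, so LIN28A binding and any other way in which CLIP departs from poly(A) sequencing cannot be told apart.

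Ccng1 had 3028, 3036 and 3452 CLIP counts with 35L33G, 2J3 and the polyclonal antibody against 1322 untreated poly(A) counts, a log2 enrichment of 1.81 ± 0.09 (SD, n = 3; edgeR adjusted p = 1.11e-11). It was more enriched than 91.7% of transcripts. Trp53inp1 had 2346, 2457 and 2639 counts against 1133, at 1.68 ± 0.06 (edgeR adjusted p = 6.99e-11, n = 3). Mdm2 had 1056, 982 and 1161 against 758, at 1.04 ± 0.11 (edgeR adjusted p = 5.97e-06, n = 3). These values varied little between antibodies. Zmat3 had 1639, 1827 and 1893 against 1416, at 0.88 ± 0.09 (edgeR adjusted p = 2.55e-06, n = 3).

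Aen, the most depleted of the 7, had 180, 229 and 118 CLIP counts against 852, at −1.78 ± 0.50 (edgeR adjusted p = 1.55e-05, n = 3). Its SD was the widest of the 7, with the polyclonal library lowest. Cdkn1a had 124, 150 and 118 counts against 372, at −0.96 ± 0.19 (edgeR adjusted p = 0.0178, n = 3), the weakest call. Bax had 1208, 962 and 912 counts against 2605, at −0.80 ± 0.23 (edgeR adjusted p = 6.22e-05, n = 3). In each of the 7 genes the 3 antibodies had the same sign. The 4 enriched transcripts were 3027 to 7782 bases long and the 3 depleted ones 869 to 2580, with no overlap, a contrast noticed after the values were seen. Over all transcripts the lengths did overlap, at 45 to 101674 bases (median 3693) for enriched and 337 to 15118 (median 2674.5) for depleted ones. Across all 7820 transcripts the rank correlation of length with enrichment was 0.20, a description over transcripts that share the same libraries.

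**Figure D4:**
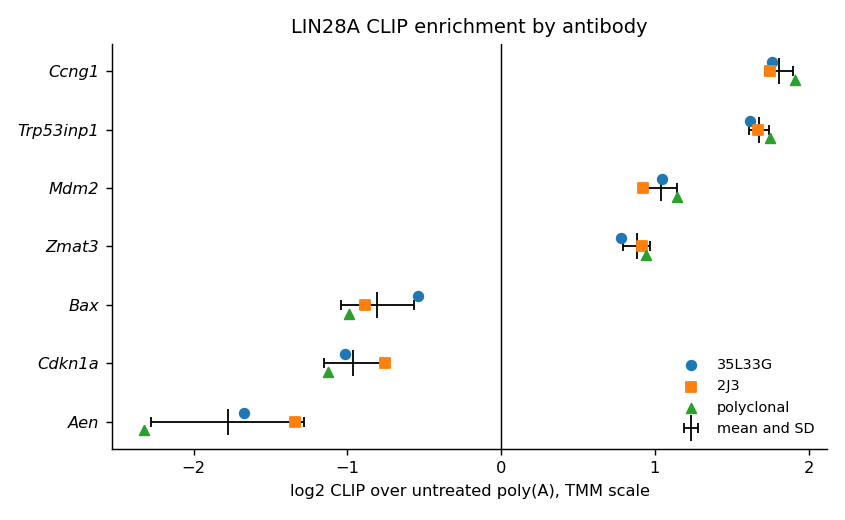
Log2 ratio of LIN28A CLIP over untreated poly(A) RNA on the TMM scale (x axis) for the 7 genes in the CLIP table, 1 point per antibody library, with the mean and SD over the 3 (black). Ccng1, Trp53inp1, Mdm2 and Zmat3 lie right of 0 with every antibody and Bax, Cdkn1a and Aen left of it.

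CLIP reads were distributed differently along these transcripts. The coding sequence held 54.0 ± 2.95% of Ccng1 reads (SD, n = 3) and 25.4% of its length. The read share was thus above the length share, by 1.09 on the log2 scale. In Mdm2 the coding share was 65.6 ± 3.49% of reads for 48.6% of the length, in Aen 65.7 ± 7.72% for 39.2%, and in Zmat3 17.5 ± 3.19% for 11.2%. In these 4 genes, every antibody placed more reads in coding sequence than its length share. Trp53inp1 had 9.39 ± 0.67% of reads for 9.06% of the length, close to even along the transcript. Bax had 42.2 ± 5.22% of reads in coding sequence for 66.6% of the length, and Cdkn1a 10.9 ± 0.43% for 24.8%. In these 2 genes every antibody placed fewer reads there than the length share. Coding counts for Cdkn1a were 13, 17 and 13 against 111, 131 and 104 in the 3′ UTR. Over 7400 coding transcripts with 200 or more CLIP counts the median coding share was 68.1% of reads, and the median coding share of length was 56.1%. Poly(A) reads by region were not used here, so an uneven spread common to all sequencing of these transcripts was not tested.

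**Figure D5:**
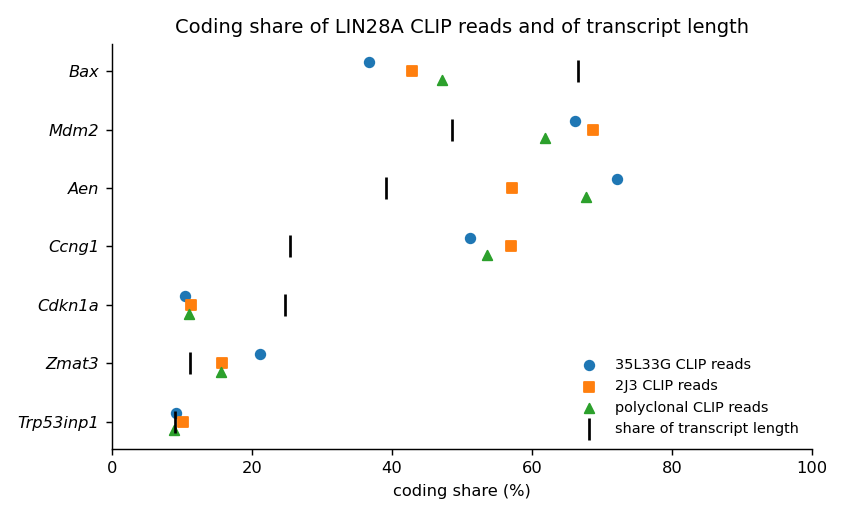
Coding share (x axis, percent) of LIN28A CLIP reads in each antibody library (coloured points) and of transcript length (black tick) for 7 genes. Points lie right of the tick for Ccng1, Mdm2, Aen and Zmat3, left of it for Bax and Cdkn1a, and around it for Trp53inp1.

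p53 and its regulators were likewise split in CLIP: of the 18 that the CLIP table lists, 6 were enriched and 5 depleted (edgeR quasi-likelihood test), where 34.6% of all 7820 transcripts were enriched and 33.3% depleted. The ubiquitin ligase gene Rfwd2, which also targets p53, was highest at 1.90 ± 0.23 (SD, n = 3), followed by Npm1, a nucleolar protein with known pseudogenes, at 1.40 ± 0.11. The acetyltransferase gene Kat5 was lowest at −1.88 ± 0.22, followed by Daxx at −1.01 ± 0.12. Trp53 was depleted at −0.67 ± 0.07. Of the mitotic genes 0 of 17 were enriched and 12 depleted, with a median of −1.13 against −0.03 over all transcripts, of which 34.6% were enriched and 33.3% depleted. Against the same shares, the further p53 targets were divided, with 1 enriched and 3 depleted of 6 arrest genes, 2 and 3 of 7 apoptosis genes, 1 and 0 of 3 repair genes, and 3 and 6 of 16 metabolism and stress genes.

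The transcripts closest to the median profile of the 8 genes, over the 3 poly(A) and 2 footprint libraries, were Hadhb, Ninl, Psmb1, Sh3glb2 and Kif1c, at Euclidean distances of 0.07 to 0.09 on the log2 scale among 6229 transcripts. Each profile was first centred on the transcript's own mean within each assay, so closeness describes change between libraries and not level. The 8 genes themselves lay 0.19 (Zmat3) to 0.58 (Phlda3) from their own median.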

How the data were processed

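Whole-number read counts per RefSeq transcript were deposited by the authors for 3 CLIP, 3 poly(A) and 2 footprint libraries; RPKM values deposited by the authors equalled counts scaled by exon length and table total (within 0.1%, 100% of transcripts). mm9, GSNAP and bedtools are named, without roles, per the submitters' processing notes; how reads were counted, whether strand was used, and tool versions are not stated by these sources. The log2 ratios deposited by the authors, 4 poly(A) columns that name no condition, and columns labelled 5′ UTR (equal to exon counts in 97.5% of transcripts) were not used. Symbols were matched as printed. The CLIP test was the quasi-likelihood test of edgeR 4.0.16 in R 4.3.3, with TMM, filterByExpr and an adjusted p threshold of 0.05; the code was checked on simulated counts. Per-antibody enrichment and siRNA log2 ratios used a pseudocount of 0.5 counts and understate low genes; poly(A) and footprint ratios are scaled by library totals. A count minimum of 200, summed over the libraries of an assay, applied, and 50 for mRNA in density. Ratio intervals are exact Clopper-Pearson at 95%. Named genes are all members, and, in each list and contrast, the 2 highest and 2 lowest, and the 5 transcripts nearest to the members' median profile; Trp53, Mdm4 and marker levels were added for context after the values were seen, and 1 gene that this rule names is not reported here. The members and lists were chosen with earlier results of these data known. DESeq2 1.42.0, other scalings, pseudocounts, minimums and folds were alternatives.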

Additional observations from a re-analysis of the deposited data

How the results depend on the processing

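All 7 CLIP calls kept direction and threshold with DESeq2, with total counts and on leaving out each antibody (7 of 7 each time). Adjusted p over these (edgeR or DESeq2) reached at most 0.0422, for Cdkn1a. The filter on low counts removed no transcript, with 7820 tested with and without it. Leaving it out therefore repeated the main run and could not change a call. The median log2 coding to 3′ UTR ratio of the 7, −0.43, ranged from −0.57 to −0.26 without 1 antibody. Over all 7400 coding transcripts it was 1.204. This ratio is not scaled by length, and the median coding share of length was 56.1% over all. In the 7 genes that share was 9.06% (Trp53inp1) to 66.6% (Bax), so these ratios do not compare like with like. As read share over length share, the 7 ranged from −1.18 (Cdkn1a) to 1.09 (Ccng1) on the log2 scale, with a median of 0.17 over all. The siRNA counts of the 8 genes depended on the fold. At 2-fold 0 were higher in every poly(A) contrast and in footprints, where 0.465% to 3.84% of all transcripts were. At 1.25-fold, chosen after seeing the data, 3 were higher for siLuc over untreated, where 15.4% of all transcripts were. For siLin28a over siLuc 2 were higher (20.7% of all), and for siLin28a over untreated 4 (19.3%). In footprints by totals 2 were higher and 2 lower (22.5% and 43.3% of all), and in centred density also 2 and 2 (30.4% and 30.3%). Footprints had 4 and 0 with TMM (31.4% and 28.9%) or median centring (30.8% and 29.7%). Density by totals had 0 and 3 (22% and 42.6%). Footprints had 2 at least 1.5-fold higher with TMM (21.1% of all) or median centring (20.8%). Density by totals had 2 at least 1.5-fold lower (26.3% of all). No gene whose interval excluded 0 in the main setting changed sign under an alternative. For Zmat3 density the alternatives differed, at −0.50 (−0.87 to −0.14) by totals and 0.27 with the poly(A) table's counts. A stricter or looser fold calls fewer or more genes by construction. Footprint counts of 132 to 240 for Cdkn1a, Phlda3, Trp53inp1 and Zmat3 limit what differences could be detected there. No paired analysis was possible because each siRNA condition has 1 library.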
